A study of Mus musculus with 8 samples.

Results

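Gastrocnemius muscle of C57BL/6 mice aged 24 months was compared with the same muscle at 3 months, across every gene with enough counts to be tested. The comparison rests on 4 of the 8 libraries of the study, 2 labelled 24 months and 2 labelled 3 months, and the other 4 came from muscle of 12 and 30 months. All were made from total RNA of flash-frozen whole muscle, and no treatment or altered allele separates the ages in the labels. The labels give neither the sex nor the substrain of the mice, and they do not say whether 2 libraries of 1 age stem from different animals, so the p-values reflect the spread between libraries, which may be technical. The data are read counts for 49315 genes, of which 19571 had enough counts to be tested. A count of 3 in a library, the most that a count of 0 allows, corresponds to 0.0506 to 0.0707 CPM, the unit that scales counts to the total of a library, a limit that covers counting error only. Levels below are CPM scaled by the TMM factors of edgeR, and a log2 difference is the fitted log2 fold change of 24 over 3 months unless other ages are named.

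The gastrocnemius is a large calf muscle built mainly of fast fibres, with fewer slow, oxidative ones. Muscle of old mice is known to lose mass and strength, to lose contacts between nerve and fibre, and to take on a larger share of slow fibre proteins. Muscle cut off from its nerve turns on acetylcholine receptor subunits and other genes that an innervated fibre keeps low. Its connective tissue, made by fibroblast-like progenitor cells, lays down most collagen during growth, and the collagen already laid down turns over slowly. As these are whole-muscle libraries, fewer cells of a type and less RNA per cell cannot be told apart.

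Both ages had the fibre genes that mark the tissue. The summed level of 15 fast fibre genes was 129700 and 179600 CPM at 3 months against 143700 and 196700 CPM at 24 months, and that of 14 slow fibre genes was 1013 and 658 CPM against 1616 and 1273 CPM. Library totals ran from 42404254 to 59245029 counts, and 13.9% to 17.8% of them were counts of Ttn, the gene of the giant sarcomere protein titin. Transcripts of 9 kidney genes such as Lrp2, Kap and Slc34a1 stood out in 5 of the 8 libraries. They summed to 49.3 and 15.9 CPM at 3 months, to 3.64 CPM in replicate 1 and 0.117 CPM in replicate 2 of 24 months, and 9 of 9 had a negative log2 fold change, with a median of -3.58. A model that adds a term for the 5 libraries with such transcripts, named below as the library set term, was therefore fitted as well. It called 48 genes higher (0.245%) and 23 lower (0.118%), and its values are given below where it changed the call of a named gene or moved a described list median by over 1.5 times and at least 0.1. Both 3 month libraries belong to that set and 24 months has 1 library on each side, and under the term the kidney median was still -2.60.

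At 24 months 20 of the 19571 genes differed from 3 months at an adjusted p below 0.05 in the quasi-likelihood test of edgeR (0.102%), with 16 of them higher (0.0818%) and 4 lower (0.0204%). Genes that rose included Cpne2, the gene of a copine (a protein that binds membranes when calcium is present), the keratin gene Krt18, the immunoglobulin heavy chain gene Ighg2c, and mt-Nd3, which encodes a subunit of respiratory complex I. The genes that fell were the imprinted noncoding RNA Rian, Wdfy1, which encodes an endosomal protein, and Gm28438 and Gm10222, which are nuclear copies of mitochondrial genes. Of the 20, 2 are genes of the mitochondrial genome, 2 are near copies of it in the nucleus and 3 are Gm10800 and genes like it in sequence. In the remaining 13, symbols range from protein-coding genes to predicted transcripts. Over all genes the median log2 fold change was 0.02, with 51.9% of genes positive and 48.1% negative.

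**Figure D1:**
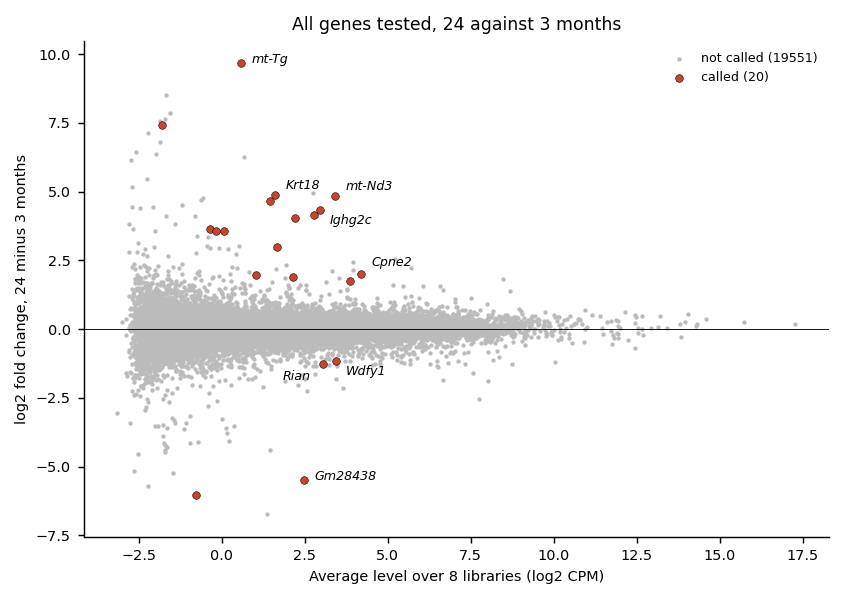
Each point is 1 of the 19571 genes tested, with its average level over the 8 libraries in log2 CPM on the horizontal axis and its log2 fold change at 24 minus 3 months on the vertical axis. The 20 genes called are in red, 16 above and 4 below the line at 0, and most other genes lie near that line; the 2 called points furthest up belong to mt-Tg and 1010001B22Rik, which had 0 counts at 3 months, so their height depends on the prior count.

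Cpne2 is one of the named protein-coding genes that rose (ENSMUSG00000034361, chromosome 8, 94532990 to 94570531, GRCm38). Its level was 5.55 and 6.08 CPM in the libraries of 3 months and 20.8 and 25.6 CPM in those of 24 months. The groups lay far apart, with means of 5.82 ± 0.37 and 23.1 ± 3.4 CPM (SD, n = 2), a log2 difference of 1.99 (SE 0.16, with an adjusted p of 0.00139). The libraries of 12 months, at 12.3 and 13.6 CPM, fell between these ages, and those of 30 months, at 32.9 and 30.9 CPM, lay above them. Cpne2 passed in 7 of the 8 fits that leave out 1 library.

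Krt18 encodes a keratin of simple epithelia that is also among the genes listed here for the denervation response. It was near the limit of detection at 3 months, with 0.173 and 0.0556 CPM, and stood at 2.43 and 4.27 CPM at 24 months. The log2 difference was 4.89 (SE 0.50, with an adjusted p of 0.00964). At 12 months it was at 0.701 and 0.741 CPM and at 30 months at 6.20 and 9.76 CPM, so the 4 ages did not overlap and their order was that of age.

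Srrm4os, a noncoding RNA gene on the strand opposite Srrm4, a regulator of splicing in neurons, was at 1.56 and 1.65 CPM at 3 months against 5.86 and 6.12 CPM at 24 months. Its log2 difference was 1.90 (SE 0.19, with an adjusted p of 0.00862). It overlaps Srrm4 in the annotation, and no source used here gives the strand setting of the counting, so reads of these 2 genes may be mixed. Fam174b, a gene for a membrane protein, was at 0.907 and 0.593 CPM and then at 4.69 and 7.21 CPM, a log2 difference of 2.99 (SE 0.39, with an adjusted p of 0.0385). Srrm4os, Fam174b, Cpne2 and Krt18 each had a mean at 12 months that lay between those of 3 and 24 months.

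Tmem132b, which encodes a protein of the cell membrane, was at 6.03 and 5.25 CPM at 3 months against 18.3 and 19.5 CPM at 24 months, a log2 difference of 1.75 (SE 0.22, with an adjusted p of 0.037). It was already at 17.8 and 16.1 CPM at 12 months. Lrmda, a leucine-rich repeat gene linked to melanocytes, was at 0.540 and 0.834 CPM and then at 2.53 and 2.86 CPM, with a log2 difference of 1.96 (SE 0.28, with an adjusted p of 0.0495). At 12 months it was at 2.01 and 2.40 CPM. Fam174b and Lrmda overlap noncoding genes, with the same uncertainty as Srrm4os.

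**Figure D2:**
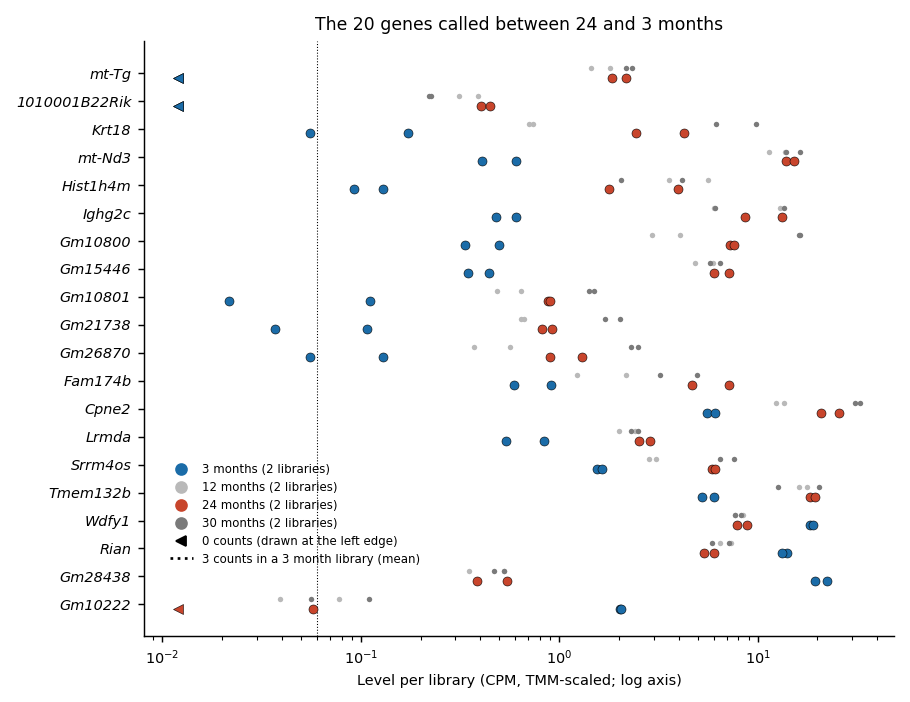
Levels of the 20 genes called between 24 and 3 months in each of the 8 libraries, in CPM on a log axis, with 1 row per gene in the order of the log2 fold change. Blue points of 3 months and red points of 24 months do not overlap in any row, and the small grey points of 12 and 30 months lie with or near the red ones in most rows; triangles at the left edge are libraries with 0 counts.

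Among immune genes, Ighg2c, the constant region of the heavy chain of IgG2c, which plasma cells make, was the gene that rose. Its level was 0.605 and 0.482 CPM at 3 months against 8.68 and 13.2 CPM at 24 months, a log2 difference of 4.33 (SE 0.56, with an adjusted p of 0.0495). At 12 months it was at 6.04 and 12.9 CPM. Igkc, the constant region of the kappa light chain, was at 0.367 and 0.278 CPM and then at 13.5 and 6.33 CPM, a log2 difference of 4.94 (SE 0.74) that was not called (adjusted p = 0.115). Ighm, the heavy chain gene of IgM, was at 43.7 and 49.5 CPM and then at 88.1 and 186 CPM, without a call (adjusted p = 0.314). It passed with the library set term, at a log2 difference of 1.11 (adjusted p = 0.0203), and in DESeq2 (adjusted p = 0.000362). The list of B and plasma cell genes had 17 tested members, of which 14 were positive. Its median log2 fold change was 0.88 beside 0.02 for all genes. The largest rises were those of immunoglobulin genes and Jchain. The 3 negative members were the B cell markers Cd22 (-0.70) and Cd79b (-0.315) and the plasma cell gene Mzb1 (-0.12). In that list 1 gene was called, where 0.0818% of all genes were called higher. At an unadjusted p below 0.05, 7 were higher, beside 4.23% of all genes. Xbp1, a transcription factor that plasma cells need and muscle also expresses, was at 45.0 and 39.9 CPM and then at 51.8 and 57.8 CPM. In replicate 1 and replicate 2 of 24 months, the median of the list lay 1.23 and 0.45 above the mean of 3 months on the log2 scale. With the library set term 2 members passed as higher, Ighg2c and Ighm, beside 0.245% of all genes. In DESeq2, which called 0.408% of all genes higher, 5 did.

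Rian is a maternally expressed noncoding RNA that hosts small nucleolar RNAs (ENSMUSG00000097451, chromosome 12, 109603940 to 109661716, GRCm38). It was at 14.1 and 13.3 CPM at 3 months against 6.05 and 5.36 CPM at 24 months. The means were 13.7 ± 0.56 and 5.71 ± 0.49 CPM (SD, n = 2), and it fell by 1.26 on the log2 scale (SE 0.17, with an adjusted p of 0.0472). The call was near the threshold and was made in 2 of the 8 fits that leave out 1 library. Meg3 and Mirg lie on the same strand on either side of Rian, in an imprinted cluster that also carries many microRNAs. Meg3 was at 12.3 and 15.8 CPM and then at 7.62 and 6.04 CPM, with a log2 difference of -1.04 (SE 0.23, with an adjusted p of 0.251). Mirg was at 2.38 and 2.39 CPM and then at 1.03 and 0.799 CPM, a difference of -1.38 (SE 0.27, with an adjusted p of 0.203). Thus 1 of these 3 neighbours was called. All 3 lay lower at 24 months without overlap of the groups, as 19.4% of all genes did.

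The list of 22 tested imprinted genes had 9 positive and 13 negative members and a median of -0.31. Of these, 10 were lower at an unadjusted p below 0.05 beside 3.33% of all genes, and 1 was higher beside 4.23%. In DESeq2 4 members passed as lower, beside 0.228% of all genes. Slc38a4, which takes up neutral amino acids and is expressed from the paternal copy in some tissues, was at 150 and 189 CPM and then at 97.2 and 75.5 CPM. Its log2 difference was -0.97 (SE 0.20, with an adjusted p of 0.222), and 30 months lay lower again at 72.7 and 58.5 CPM. Among 18 amino acid transporter genes, which hold Slc38a4 too, 15 were negative with a median of -0.13 (-0.30 with the library set term), and none was called. Slc38a2, a transporter of the same family, was at 166 and 163 CPM and then at 109 and 121 CPM, without a call (adjusted p = 0.567).

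A step between 3 months and all later ages marked several of the called genes. Wdfy1 (chromosome 1, 79702262 to 79776143), which overlaps Mrpl44, was at 18.4 and 19.1 CPM at 3 months against 7.87 and 8.86 CPM at 24 months. It fell by 1.16 on the log2 scale (SE 0.15, with an adjusted p of 0.037), and the 4 libraries of 12 and 30 months lay between 7.67 and 8.47 CPM. In 14 of the 20 called genes, the log2 difference from 3 to 12 months was at least 75% of that from 3 to 24 months. These differences share the 3 month libraries, so they are not separate evidence.

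Wdfy1 is also 1 of 6 genes listed here because their level is known to differ between C57BL/6 substrains. Nnt, the transhydrogenase of the inner mitochondrial membrane, whose deletion in C57BL/6J mice is the best known of these differences, was at 155 and 126 CPM at 3 months against 58.2 and 58.6 CPM at 24 months. Its log2 difference was -1.27 (SE 0.26), and it was not called (adjusted p = 0.225); in the annotation a second gene also carries the symbol Nnt and overlaps it. Ide, the insulin-degrading enzyme, was at 113 CPM in both libraries of 3 months and at 177 and 321 CPM at 24 months, a log2 difference of 1.14 (adjusted p = 0.412). Mmrn1, a gene of platelets and endothelium, had a difference of -0.78 (adjusted p = 0.684). At 12 months Nnt was at 46.5 and 40.2 CPM and Ide at 227 and 212 CPM. As the labels do not give the substrain, age and a difference in substrain between the 3 month mice and the others cannot be told apart.

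mt-Nd3 and Gm28438 showed the same step in opposite directions. mt-Nd3 lies in the mitochondrial genome at 9459 to 9806 (GRCm38, plus strand), and Gm28438 is a pseudogene on chromosome 1 at 24612775 to 24613119 (minus strand), in a block of nuclear sequence copied from the mitochondrial genome. Their transcripts in GENCODE M21 agree at 344 of 345 bases. The difference is T3C, counted from 1 at the 5′ end of the transcript, with the base of mt-Nd3 first. The transcripts are 348 and 345 bases long, so T3C is the only difference over the 345 bases compared. The first 29 bases of each are shown, with the differing base in capitals.
mt-Nd3: atTaacctgtacactgttatcttcattaa
Gm28438: atCaacctgtacactgttatcttcattaa
The stretch of mt-Nd3 covers 9459 to 9487 of the mitochondrial genome, with the differing base at 9461, and that of Gm28438 covers 24613091 to 24613119 of chromosome 1.

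mt-Nd3 was at 0.605 and 0.408 CPM at 3 months against 13.9 and 15.2 CPM at 24 months, and it rose by 4.85 on the log2 scale (SE 0.24, with an adjusted p of 5.18e-05). Gm28438 was at 22.4 and 19.6 CPM and then at 0.383 and 0.545 CPM, and it fell by 5.49 (SE 0.26, with an adjusted p of 5.18e-05). The summed level of the pair was 22.97 and 19.97 CPM at 3 months against 14.3 and 15.7 CPM at 24 months, a log2 ratio of -0.52, so most of both changes cancelled in the sum. Counts in mt-Nd3 made up 2.63% and 2.04% of the pair at 3 months and 95.6% to 97.5% in the 6 later libraries. The level of either gene is uncertain, since no source used here says how reads that match both were counted. At 3 months the mean levels of mt-Co1, mt-Nd1 and mt-Cytb were 20580, 4262 and 3688 CPM. Those of mt-Co2, mt-Co3 and mt-Atp6 were low like that of mt-Nd3, at 0.913, 2.42 and 0.502 CPM. How far uncounted reads set the level of mt-Nd3 was not tested.

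In the next pair of the same block the shares shifted too, but the sum was also lower. mt-Nd4l, another complex I subunit, and Gm10222 agree at all 294 bases compared. mt-Nd4l was at 0.0648 and 0.167 CPM at 3 months against 1.30 and 0.526 CPM at 24 months, with a log2 difference of 2.92 (SE 0.56) that was not called (adjusted p = 0.203), though it passed with the library set term (adjusted p = 0.0471). Gm10222 fell, from 2.03 and 2.06 CPM to 0.0575 and 0 CPM (adjusted p = 0.0105). Its counts over both libraries were 205 and 3, a ratio of 70.6 with an exact 95% interval of 23.8 to 345 for counting error. The share of mt-Nd4l in the pair was 3.09% and 7.50% at 3 months and 94.2% to 100% later. Their summed level was 2.10 and 2.23 CPM at 3 months against 1.36 and 0.526 CPM at 24 months, a log2 ratio of -1.196. The level of either gene of this pair is uncertain too, for the reason given for mt-Nd3 and Gm28438. mt-Tg, the mitochondrial tRNA gene for glycine that directly precedes mt-Nd3, had 0 counts in both libraries of 3 months and 2.17 and 1.85 CPM at 24 months. It was at least 33.3-fold higher at 24 months, taking 3 counts per library as the floor (adjusted p = 0.00101). The mitochondrial list as a whole had 12 tested protein-coding genes, 5 positive and 7 negative, with a median of -0.08. The sign of this median depended on the fit and the library: it was 0.08 with the library set term, -0.31 when replicate 1 of 3 months was left out and 0.22 when replicate 2 of 24 months was. Besides mt-Nd3, none was called, and the lists of nuclear oxidative phosphorylation genes below gave no call either.

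**Figure D3:**
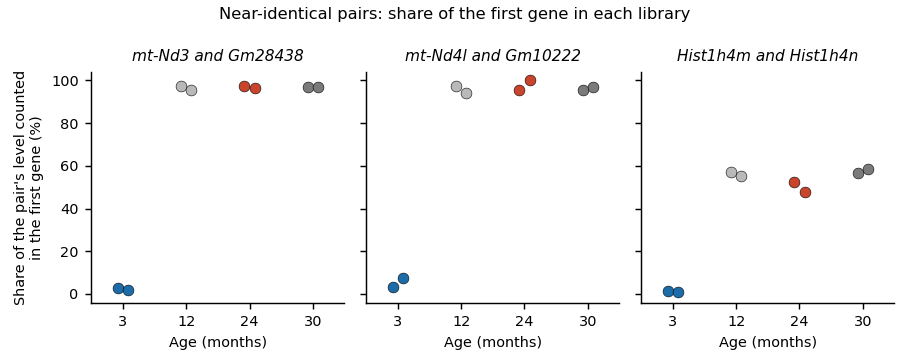
Share of the summed level of a near-identical pair that was counted in its first gene, in percent, for each of the 8 libraries by age in months. In each of the 3 pairs the blue points of 3 months lie at or below 7.50%, and all later points lie at or above 47.6%.

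A pair of histone H4 genes showed the step as well. Hist1h4m and Hist1h4n lie on chromosome 13, at 21811746 to 21812147 (plus strand) and 21831767 to 21832196 (minus strand), and their transcripts agree at 401 of 402 bases compared. The difference is G36A, counted as above with the base of Hist1h4m first. It falls just before the start codon in the 29 bases shown, which run from base 22 to base 50 of each transcript with the differing base in capitals.
Hist1h4m: acagttttgtcttcGtcatgtctggtcgt
Hist1h4n: acagttttgtcttcAtcatgtctggtcgt
These bases lie at 21811767 to 21811795 and at 21832147 to 21832175 of chromosome 13.

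Hist1h4m was at 0.130 and 0.0927 CPM at 3 months against 3.97 and 1.77 CPM at 24 months, and it rose by 4.67 on the log2 scale (SE 0.63, with an adjusted p of 0.0495). Hist1h4n was at 10.5 and 11.8 CPM and then at 3.56 and 1.95 CPM, a log2 difference of -2.02 (SE 0.36) that was not called (adjusted p = 0.192) but passed with the library set term (-1.70, adjusted p = 0.00292). Hist1h4m made up 1.22% and 0.78% of the pair at 3 months and 52.7% and 47.6% at 24 months. The sum of the pair had a log2 ratio of -1.001. As for mt-Nd3 and Gm28438, the level of either gene is uncertain, since the handling of reads that match both is not known.

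On chromosome 5 the neighbours Gm15446 (109923400 to 109943936) and 1010001B22Rik (109995511 to 109996398), 51574 bases apart, both rose. Gm15446 was at 0.346 and 0.445 CPM at 3 months against 6.04 and 7.15 CPM at 24 months, a log2 difference of 4.04 (SE 0.25, with an adjusted p of 0.000226). 1010001B22Rik had 0 counts in both libraries of 3 months and was at 0.402 and 0.448 CPM at 24 months, at least 7.06-fold higher (adjusted p = 0.0415). Gm15446 was at 4.84 to 6.49 CPM in the 4 libraries of 12 and 30 months. The other 13 genes tested within 200 kb of the pair had log2 fold changes of -0.27 to 0.61, and none was called.

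Gm10800, in satellite-like sequence on chromosome 2, was at 0.497 and 0.334 CPM at 3 months against 7.22 and 7.56 CPM at 24 months, a log2 difference of 4.16 (SE 0.26, with an adjusted p of 0.000226). It was at 2.92 and 4.06 CPM at 12 months against 16.2 and 16.3 CPM at 30 months, so the ages did not overlap. Gm10801 beside it, Gm21738 on chromosome 14 and Gm26870 on chromosome 9, the last in a cluster of overlapping predicted genes, rose by 3.64, 3.58 and 3.57. Their levels lay between 0.0216 and 0.130 CPM at 3 months and between 0.818 and 1.30 CPM at 24 months. As Gm10800, Gm10801 and Gm21738 are alike in sequence, the levels of the single genes are uncertain.

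Beyond the calls, 12 higher and 12 lower genes were taken by lowest p among those with a gene name, a mean level of 2 or more in log2 CPM and groups that did not overlap. Of these, 5 and 2 are among the called genes above. Eda2r, a p53 target that encodes the receptor for ectodysplasin A2, stood at 21.5 and 19.1 CPM and then at 51.9 and 67.4 CPM. Its log2 difference was 1.55 (SE 0.23), with an adjusted p of 0.0566, and it passed in 4 of the 8 fits that leave out 1 library and with the library set term (adjusted p = 0.0318). Prkcz, an atypical protein kinase C, had a log2 difference of 1.20, Cyfip2, a regulator of actin assembly, 2.14, the kinase gene Pak1 1.00, the glutathione transferase gene Gstm2 0.80, and Amy1, an amylase gene with close paralogs, 1.11. Adjusted p-values of these 5 genes were 0.106 to 0.195, and with the library set term 0.00779 to 0.0633, where Prkcz, Cyfip2, Pak1 and Gstm2 passed and Amy1 did not. Gstm2 was at 25.7 and 25.1 CPM and then at 43.2 and 45.2 CPM, with the libraries of each age close together. Nbea, which encodes a protein of vesicle transport, was at 26.7 and 27.1 CPM and then at 14.8 and 12.7 CPM, a log2 difference of -0.97 (SE 0.14, with an adjusted p of 0.0566), which passed with the library set term (adjusted p = 0.0146).

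Other genes with lower values were Ccn2, a matrix-associated growth factor, at -0.93 on the log2 scale, Fras1, a basement membrane protein, at -0.90, Depp1, a target of FOXO factors, at -1.19, and Tmem185a at -0.70. Nfil3, a repressor in the circadian clock, was at 36.6 and 37.0 CPM and then at 13.3 and 16.5 CPM, a log2 difference of -1.30 (adjusted p = 0.222). None of these 5 genes was called in edgeR, and with the library set term Ccn2 (adjusted p = 0.0425) and Fras1 (adjusted p = 0.0371) passed.

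Collagen and matrix genes lay lower at 24 months in nearly the whole list without a call. Of 30 tested members 27 had negative log2 fold changes, with a median of -0.61. In 22 of them both libraries of 24 months lay below both of 3 months, as in 19.4% of all genes. At an unadjusted p below 0.05, 11 of the 30 were lower, beside 3.33% of all genes. Col1a1, a chain of type I collagen, was at 447 and 505 CPM at 3 months against 119 and 44.1 CPM at 24 months. Its log2 difference was -2.55 (SE 0.56, with an adjusted p of 0.296). Col1a2, the partner chain, was at 446 and 503 CPM and then at 172 and 86.4 CPM, a difference of -1.88 (SE 0.39, with an adjusted p of 0.246). Sparc, which binds collagen, was at 168 and 181 CPM and then at 102 and 88.7 CPM, a difference of -0.88 (SE 0.18, with an adjusted p of 0.225). Col5a1, a chain that nucleates collagen fibrils, had a difference of -0.89 (adjusted p = 0.430).

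The size of the collagen difference depended on the library. The median of the list was -0.37 in replicate 1 and -0.94 in replicate 2 of 24 months against the mean of 3 months. With the library set term it was -0.35. There 3 members passed as lower, Col1a2 (adjusted p = 0.0319), Col3a1 and Col5a2, beside 0.118% of all genes. In DESeq2 3 passed as lower, beside 0.228%. Fibroadipogenic progenitor genes, which mark the main collagen-making cells, had 12 of 16 members negative and a median of -0.38 (-0.22 with the library set term). Both libraries of 24 months lay below both of 3 months in 11 of the 16, as in 19.4% of all genes. Gsn, the most abundant of the list and also expressed elsewhere, was at 1139 and 1407 CPM and then at 1084 and 859.8 CPM, a log2 difference of -0.39 (adjusted p = 0.714). Dcn, an abundant marker of these cells, was at 372 and 366 CPM and then at 352 CPM in both libraries of 24 months. Smoc2 was at 98.3 and 113 CPM and then at 117 and 113 CPM. The summed level of the progenitor list was 2108 and 2417 CPM at 3 months against 2047 and 1677 CPM at 24 months. Tendon and cartilage genes had a median of -0.87, and 13 of 14 were negative. Fmod, a tendon proteoglycan, was at 184 and 222 CPM and then at 129 and 53.5 CPM, while Cilp, a cartilage matrix gene, was at 51.1 and 63.1 CPM and then at 90.9 and 86.4 CPM. The summed tendon level was 484 and 560 CPM against 388 and 241 CPM, again lowest in replicate 2 of 24 months, and how much it contributed to the collagen values was not tested.

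**Figure D4:**
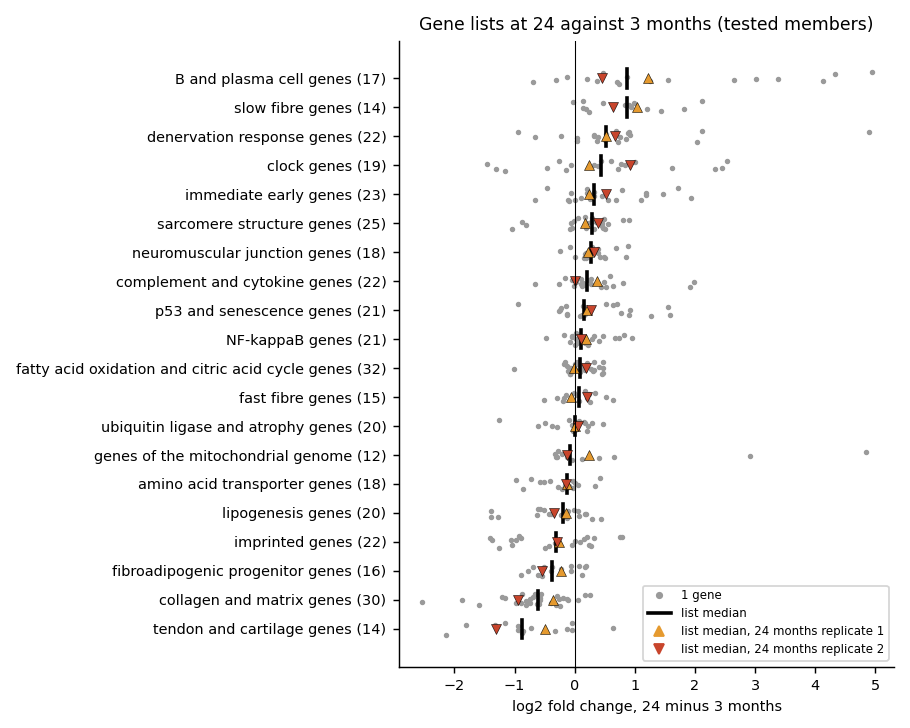
Log2 fold changes at 24 minus 3 months for the tested members of 20 gene lists, with the number of tested members in brackets. Grey points are single genes and black bars list medians; triangles give the list median in each library of 24 months against the mean of 3 months, and of the lists shown these lie furthest apart for the clock, B and plasma cell, and tendon and cartilage genes.

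Slow fibre genes lay higher as a group, also without a call. Of 14 tested members 13 were positive, with a median log2 fold change of 0.88, and 7 did not overlap between the ages beside 20.0% of all genes. Myh7, which encodes slow myosin, was at 124 and 77.0 CPM and then at 400 and 304 CPM, a log2 difference of 1.81 (SE 0.34, with an adjusted p of 0.195). With the library set term it passed (2.07, adjusted p = 0.0085), the 1 member that did, beside 0.245% of all genes. In DESeq2 2 members passed as higher, beside 0.408%. Tnnt1, slow troponin T, was at 50.8 and 23.2 CPM and then at 108 and 91.5 CPM, a difference of 1.43 (SE 0.35). Atp2a2, which encodes the slow calcium pump, had a difference of 0.91 and the slow myosin gene Myh7b of 0.84. Myh7 overlaps the noncoding gene Mhrt, with the uncertainty given for Srrm4os. The 2 libraries of 3 months themselves differed in these genes, and the list median was between 0.52 and 1.10 in the fits that leave out 1 library.

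Fast fibre genes had 9 of 15 members positive and a median of 0.07, which became -0.16 under the library set term, so the sign of its median depended on the fit. Myh1, a fast myosin, was at 3397 and 3461 CPM and then at 4871 and 5808 CPM, and Myoz1, a protein of the fast fibre Z-disc, was at 1676 and 1918 CPM and then at 1304 and 1218 CPM. Neither was called (adjusted p = 0.740 and 0.663). Sarcomere structure genes had 18 of 25 members positive and a median of 0.29 (0.17 with the library set term). Myom3, an M-band protein, was at 64.2 and 51.6 CPM and then at 91.0 and 111 CPM, while Actc1, the cardiac actin that muscle expresses early in development, was at 113 and 127 CPM and then at 48.4 and 82.8 CPM. Stretch-responsive genes went both ways, with differences of -0.81 for Ankrd2, -1.04 for Csrp3 and 0.90 for Ankrd1. No member of the list was called.

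Genes of the denervation response had a median of 0.52, with 19 of 22 members positive, 1 called, Krt18 (0.0818% of all genes were called higher), and 9 higher at an unadjusted p below 0.05, beside 4.23% of all genes. Kcnn3, a potassium channel of denervated fibres, was at 2.48 and 2.91 CPM and then at 5.44 and 4.73 CPM, a log2 difference of 0.91 (adjusted p = 0.441). Ampd3, an AMP deaminase, was at 11.4 and 10.5 CPM and then at 14.7 and 16.8 CPM. Chrnb1, a subunit of the acetylcholine receptor, was at 12.6 and 17.5 CPM and then at 21.1 and 27.4 CPM, a difference of 0.68 (adjusted p = 0.513). Neuromuscular junction genes share Chrnb1, Chrna1, Chrnd, Chrng and Musk with the denervation list, so the 2 lists are not separate evidence. Of the 18 junction members 15 were positive, with a median of 0.27 and no call. That median was 0.13 with the library set term, and at 3 months leaving out replicate 1 gave 0.16 and leaving out replicate 2 gave 0.50. Lrp4, the receptor for the nerve signal agrin, was at 22.5 and 25.7 CPM and then at 34.7 and 33.1 CPM, and the receptor subunits Chrnd and Chrna1 had differences of 0.85 and 0.50. The median of the denervation list was 0.52 and 0.67 in the 2 libraries of 24 months and 0.59 with the library set term.

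Ubiquitin ligase and atrophy genes, which are turned on when muscle wastes fast, had 10 of 20 members positive and a median of 0.00. Trim63, the ligase MuRF1, was at 266 and 356 CPM and then at 220 and 222 CPM, and Foxo1, a transcription factor that acts on it, had a difference of -0.61; neither was called (adjusted p = 0.640 and 0.311). The p53 and senescence list, which holds Eda2r, had 14 of 21 members positive, a median of 0.16 and no call. Its 7 negative members included Cdkn1a at -0.94, the lowest value of the list. With the library set term the list median was 0.08 and 2 members passed as higher, Eda2r and Plk2, beside 0.245% of all genes. In DESeq2 1 did, Eda2r, beside 0.408%. Plk2, a stress-responsive kinase, was at 7.48 and 6.67 CPM and then at 12.8 and 11.3 CPM, a difference of 0.77 (SE 0.15, with an adjusted p of 0.203, and 0.0499 with the library set term), and Sesn2, a stress sensor, had a difference of 0.92. In the NF-kappaB list 16 of 21 were positive with a median of 0.10 (0.22 with the library set term). Its subunit gene Nfkb2, which overlaps Psd, was at 8.38 and 9.01 CPM and then at 14.7 and 19.2 CPM, a difference of 0.96 (SE 0.18, with an adjusted p of 0.195, and 0.0359 with the library set term), and Relb, its partner in the alternative pathway, had a difference of 0.81.

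Lipogenesis genes had 14 of 20 members negative and a median of -0.19, which was -0.10 without replicate 1 and -0.43 without replicate 2 of 3 months. Against the mean of 3 months the median was -0.15 in replicate 1 and -0.35 in replicate 2 of 24 months. Fasn, the fatty acid synthase, was at 179 and 98.9 CPM and then at 69.4 and 36.9 CPM, a difference of -1.39 (SE 0.40, with an adjusted p of 0.482). Scd1, a desaturase, was at 337 and 125 CPM and then at 110 and 81.0 CPM, and Elovl6, an elongase, and Acaca, acetyl-CoA carboxylase, had differences of -1.39 and -0.62. Replicate 1 of 3 months was the highest of the 4 libraries for all 4 genes, and none was called. Genes of fatty acid oxidation and the citric acid cycle had a median of 0.09 (0.19 with the library set term), with 20 of 32 positive. Pdk4, which restrains glucose oxidation, was at 421 and 659 CPM and then at 303 and 233 CPM, a difference of -1.01 (adjusted p = 0.446). Among 40 nuclear genes of oxidative phosphorylation 26 were negative with a median of -0.07, none was called and none had an unadjusted p below 0.05.

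**Figure D5:**
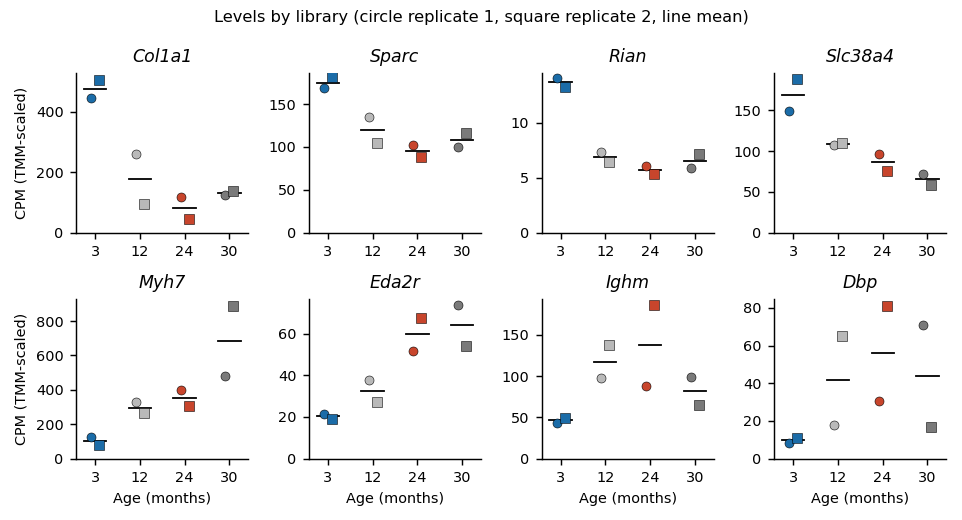
Levels in CPM of 8 genes in each library by age in months, with circles for replicate 1, squares for replicate 2 and lines for the mean. In each panel both libraries of 24 months lie on 1 side of both of 3 months. Over all genes, 20.0% lay higher and 19.4% lower in this way. The 8 genes were picked from those named in the text, many of them by low p. Their separation was thus partly fixed by the choice. Of the 8 genes shown 1, Rian, was called. The 2 libraries of 24 months lie far apart for Col1a1, Ighm and Dbp.

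Clock genes differed between the libraries of 24 months. The list had 12 of 19 members positive and a median of 0.43, with 0.24 in replicate 1 and 0.92 in replicate 2 of 24 months, and 0.04 with the library set term. No member was called, but with that term 3 passed as higher, Dbp, Per2 and Per3, beside 0.245% of all genes. In DESeq2 1 member passed, as lower, beside 0.228% of all genes. The 7 negative members included Npas2 at -1.46, Nfil3 at -1.30 and Arntl at -1.16. Dbp, a clock output gene with a strong daily rhythm, was at 8.32 and 10.9 CPM at 3 months against 30.8 and 81.0 CPM at 24 months. Its log2 difference was 2.54 (SE 0.90, with an adjusted p of 0.601), and 1.49 with the term (adjusted p = 0.0113). Per3, a clock repressor, was at 14.9 and 16.8 CPM and then at 36.9 and 60.5 CPM, with an adjusted p of 0.0132 under the term. The labels give no hour of collection, and its part in these values was not tested.

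Immediate early genes, which respond within minutes to activity or stress, had 18 of 23 members positive and a median of 0.32. Egr1 was at 2.10 and 2.47 CPM and then at 5.48 and 11.9 CPM, a difference of 1.93 (SE 0.37, with an adjusted p of 0.203). Junb was at 5.08 and 6.60 CPM and then at 13.8 and 18.8 CPM, a difference of 1.48 (SE 0.29, with an adjusted p of 0.210). Ier3 and Ier5 had differences of 1.19 and 0.69. In 7 genes of the list the unadjusted p was below 0.05 on the higher side, beside 4.23% of all genes, and none was called. With the library set term 1 member passed as higher, Junb (adjusted p = 0.0464), beside 0.245% of all genes. In DESeq2 3 passed as higher, beside 0.408%. Complement and cytokine genes had 17 of 22 members positive and a median of 0.20 (0.43 with the library set term), but the median was 0.38 in replicate 1 and 0.01 in replicate 2 of 24 months. Cxcl10, a chemokine induced by interferon, was at 0.259 and 0.389 CPM and then at 0.900 and 1.60 CPM, without a call (adjusted p = 0.421).

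Muscle of 24 months was also set against muscle of 12 months, the next younger age. No gene passed (0.0% of 19571), with 600 at an unadjusted p below 0.05 (3.07%); DESeq2 called 2 genes and limma-voom 0. Of the 20 genes called against 3 months, Krt18 had the largest difference between 24 and 12 months, 2.21 on the log2 scale, followed by Fam174b with 1.81 and Gm26870 with 1.23. Gm10800 had a difference of 1.08, Srrm4os of 1.02 and Cpne2 of 0.84, each with an adjusted p of 0.994. For Wdfy1, Gm28438 and mt-Nd3 the differences were 0.05, 0.08 and 0.21.

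Which genes were called against 3 months depended on single libraries. Leaving out replicate 1 or replicate 2 of 3 months left 5 or 7 calls, leaving out replicate 1 or replicate 2 of 24 months gave 24 or 6, and leaving out either library of 30 months gave 33. The 5 genes called whichever of the 8 libraries was left out were Gm28438, Gm10800, Gm15446, mt-Tg and mt-Nd3. Without the genes of the mitochondrial genome, their near copies and those like Gm10800, the genes called were Cpne2, Gm15446, Krt18 and Srrm4os. DESeq2 called 131 genes, 84 higher and 47 lower, and the fit with the library set term called 71, 48 higher and 23 lower (0.363%). Both contained the 20. Of the 90 named genes that edgeR did not call, 18 passed with the library set term and 32 in DESeq2. List medians moved with single libraries too. Leaving out replicate 1 of 24 months gave medians of -0.95 for collagen, -1.31 for tendon, 0.45 for B and plasma cell and 0.92 for clock genes, and leaving out replicate 2 of 24 months gave -0.37, -0.59, 1.47 and 0.24. Immediate early genes ranged from 0.23 without replicate 2 to 0.50 without replicate 1 of 24 months.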

How the data were processed

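Per the labels' protocols, libraries for paired-end sequencing were prepared from Trizol-extracted total RNA with NEBNext Ultra reagents. The authors deposited whole-number read counts per Ensembl gene, without normalization. The submitters' processing notes name STAR 2.5.2b, Trimmomatic 0.36, Subread 1.5.2 with featureCounts, and the builds mm10 and GRCm38. Not given in the sources used here are the annotation release, the strand setting and how reads with several matches were handled. Symbols, coordinates and transcript sequences came from GENCODE M21 (GRCm38), where 49056 of 49315 identifiers were found. Near copies of the mitochondrial genome and of Gm10800 were found with blastn, at 90% identity or more over at least 50% of the transcript.

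Counts were analysed with edgeR 4.0.16 in R 4.3.3. The filter was filterByExpr on the ages, scaling was by TMM, and a robust quasi-likelihood model held 4 ages over 8 libraries, with 4 residual degrees of freedom. A gene was called at an adjusted p below 0.05 (Benjamini-Hochberg, over all genes tested). Each SE was taken as the size of the log2 fold change over the square root of its F statistic. Differences of single libraries used log2 CPM with a prior count of 2. The labels name nothing that same-numbered samples share, so the samples were not paired. Alternatives were RLE size factors, library totals, 2 other low count filters, DESeq2 1.42.0, limma-voom (limma 3.58.1), the 4 libraries alone, a replicate block, the library set (libraries parted at the widest gap in the log2 sum of 9 kidney genes), genes without the mitochondrial and repeat ones, a minimum change of 1.5 times, and leaving out each library. The procedure was also tested on simulated counts.

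The text names every gene called, 12 higher and 12 lower genes by lowest p, and up to 4 members of a list by lowest p or, for cell types and other tissues, 3 by level. Igkc, Eda2r and other genes that were not called are given as values. A result that this rule selects is not reported here. The members, the 54 gene lists and the alternatives were chosen with earlier results of these data known.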

Additional observations from a re-analysis of the deposited data

How the results depend on the processing

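The number of genes called at 24 against 3 months was 20, and it was 19 with RLE size factors, 13 with library totals alone, 233 with no low count filter, 10 with a filter of 1 CPM in 2 libraries, 131 with DESeq2, 10 with limma-voom, 46 with only the 4 libraries compared, 71 with the library set as a term, 4 without mitochondrial and repeat genes and 9 with a minimum change of 1.5 times. A replicate block gave 9. Same-numbered libraries of the 2 ages deviated together with a correlation of 0.033, and 3 of the 6 pairs of ages had a negative value. With 2 libraries an age, these values cannot show whether same-numbered libraries share a day or batch. Leaving out 1 library gave 5 to 33 genes at 24 against 3 months and 0 to 7 at 24 against 12 months, the 7 without replicate 1 of 24 months. At 24 against 12 months no low count filter gave 17 genes, DESeq2 2 and the other alternatives 0. An age left with 1 library is assumed to vary like the others. Of the alternative values of the called genes, 250 stayed past the threshold and 122 did not, and none changed sign. Among the other named genes 1 value did, Dcn at 0.082 with the library set as a term against -0.07. Of the list medians, 22 were past 0.2 in size, and 410 of their 418 alternative values kept the sign. The cause of these shifts was not tested. With 2 libraries an age, small changes may be missed.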

Other observations

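Several lists that mark housekeeping machinery of the fibre had small medians that were mostly positive. Of 24 heat shock and chaperone genes 20 were positive, with a median log2 fold change of 0.11. Proteasome subunit genes had 18 of 26 positive and a median of 0.11, and splicing factor genes 26 of 35 with a median of 0.08. No member of these 3 lists was called. Calcium release and uptake genes had 15 of 19 positive and a median of 0.21, which was -0.01 with the library set as a term. Satellite cell and regeneration genes had 15 of 19 positive and a median of 0.25, and autophagy and lysosome genes 15 of 23 with a median of 0.07. Polyamine metabolism genes had 9 of 14 negative and a median of -0.25.

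Lists of immune and other non-muscle cells had medians that lay apart in the 2 libraries of 24 months. The median of 22 macrophage and monocyte genes was 0.10 in replicate 1 and -0.70 in replicate 2 against the mean of 3 months. That of 8 MHC class II genes was 0.58 and -0.60, that of 15 Schwann cell and myelin genes 0.27 and -0.81, and that of 8 red blood cell genes 1.17 and 0.04. Summed over the list, macrophage genes were at 250 and 277 CPM at 3 months against 265 and 167 CPM at 24 months. Endothelial genes summed to 413 and 405 CPM and then to 422 and 377 CPM. The fitted median of the macrophage list was -0.275, and -0.0 with the library set term. For MHC class II genes these values were 0.035 and 0.341, and for Schwann cell genes -0.176 and 0.019. For red blood cell genes they were 0.672 and 1.033, and for endothelial genes -0.044 and 0.131. None of these lists had a called member.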
